A study of Mus musculus with 15 samples.

Results

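The comparison of GSK-J4 with its solvent DMSO in CD138+ plasmablasts rested on 6 libraries of poly(A) RNA, 3 per group, and on every gene that reached 1 RPKM (reads per kilobase of gene length, scaled to 1000000 reads per library) in at least 3 of them. Of the 21761 genes measured in the series, 15584 had a value above 0 in these libraries and 9983 met that limit. At the edge of the limit, Vash1 was inside at 1.0 RPKM in the deciding library and Palm3 was outside, just under that value. All mice were female wild-type C57BL/6J animals, with no age given in the labels. Splenic B cells lacking CD43, a surface protein of B-1 cells, plasma cells and most other leukocytes, were cultured for 3 days with LPS, IL-2 and IL-5, and with DMSO or 250 nM GSK-J4. Cells carrying CD138 were then pulled out with magnetic beads. The labels tie these libraries to 3 mice, except for a GSK-J4 library, here replicate 4, that could be tied to its group only. The same mice also gave a GL7+ fraction, 3 libraries per treatment, which the labels call activated B cells, and the series held unstimulated CD43- cells as well. LPS, IL-2, IL-5 and the bead selection were common to both treatments, so each comparison shows GSK-J4 against DMSO in stimulated cells only. The beads enrich and do not purify to single cells, and GSK-J4 was given at 1 dose and read at 1 time.

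Trimethylation of lysine 27 on histone H3 is laid down by the Polycomb complex PRC2, whose catalytic subunits are EZH1 and EZH2, and is found over silent genes. KDM6A (UTX) and KDM6B (JMJD3) take this mark off. GSK-J4 is an ester that enters cells and is cut there to GSK-J1, an inhibitor of both enzymes that also acts on some other JmjC demethylases. When B cells become plasmablasts, BLIMP-1 (Prdm1), IRF4 and XBP1 shut down the B cell programme of PAX5, BACH2 and their partners and build up the machinery that makes and exports antibody. CD138, the product of Sdc1, is the surface protein by which such cells are usually recognised, and GL7 is a glycan of activated and germinal centre B cells.

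The label was checked against genes that define plasmablasts. Jchain, which joins antibody subunits into polymers, was at 1608, 1529 and 1636 RPKM in the DMSO libraries and at 1696, 1738 and 1735 RPKM in the GSK-J4 libraries. Sdc1 was at 30.5, 32.1 and 35.3 RPKM with DMSO and at 34.5, 41.1 and 44.8 RPKM with GSK-J4, and had a mean of 1.37 ± 0.152 RPKM (SD, n = 3) in GL7+ DMSO cells. Both genes were well above the limit in all 6 libraries. B cell genes were present too: Ms4a1 (CD20), a surface protein of B cells, was at 70.2, 66.8 and 66.6 RPKM with DMSO.

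Few markers of other cell types were detected in either group. Markers of T cells summed to between 15.01 and 15.9 RPKM with DMSO and between 11.8 and 13.5 RPKM with GSK-J4, with Cd3e at 0 and 11 of 13 genes under 1 RPKM in all 6 libraries. The NK cell list summed to 5.97 to 7.63 RPKM against 3.79 to 4.02 RPKM. Its members Klrb1c and Nkg7 were at 0, and Il2rb carried most of the sum. Myeloid markers summed to 72.8 to 78.7 RPKM with DMSO and 65.7 to 73.2 RPKM with GSK-J4, nearly all of it Cybb, with S100a9 and Mpo at 0. The sums for dendritic cells were 102 to 109 RPKM against 110 to 123 RPKM, carried by Bst2, with Clec10a and Cd209a at 0. Markers of red cells and platelets stayed between 1.60 and 2.80 RPKM in all 6 libraries. The part of these small differences in the results was not tested. Depth differed with treatment: 9677248 to 11635754 reads with DMSO and 6241197 to 7712194 reads with GSK-J4. In bulk RNA, fewer cells of a type and less RNA per cell cannot be told apart, and this holds for every gene below.

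Exposure to GSK-J4 moved many plasmablast genes, most of them by little. With limma on log2(RPKM + 1) and Benjamini-Hochberg adjustment over all 9983 genes, 2305 genes (23.1%) passed an adjusted p of 0.05. Of these, 859 (8.60% of those tested) were higher with GSK-J4 and 1446 (14.5%) were lower. The counts given below for gene lists stand against these shares. Those lists were drawn up with earlier results of these data known. Only 48 genes (0.481%) changed at least 2-fold on this scale, 8 of them higher and 40 lower. The median change was 0.25 log2 units among risers and -0.30 among fallers, and -0.03 over all genes tested. The 3 GSK-J4 libraries lay wholly above the 3 DMSO libraries for 1525 genes (15.3%) and wholly below them for 2270 genes (22.7%). This absence of overlap held for 843 of the 859 risers (98.1%) and 1401 of the 1446 fallers (96.9%). For any called gene below, a lack of overlap therefore adds little to the call. The first principal component of the 6 libraries took 52.5% of their variance and placed the DMSO libraries between -12.4 and -10.7 and the GSK-J4 libraries between 10.2 and 13.4.

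The share of risers grew with expression level, from 3.53% of 2695 genes with a mean under 5 RPKM to 19.2% of 651 genes at 100 RPKM and over. That of fallers lay between 13.1% and 14.4% in the 3 classes below 50 RPKM and came to 20.4% at 100 RPKM and over. Thinning every library to the depth of the shallowest left 1760 calls, and taking the mouse of origin as a block left 1991. The block also takes GSK-J4 replicate 4, which has no known mouse, out of the comparison. Adding the 3 unstimulated libraries to the fit, so that it held all 15 libraries, left 1443. One of those 3 had only 1317999 reads. After quantile normalization 51.1% of the called genes were higher, against 37.3% here. The log2(RPKM + 1) scale understates the change of genes near 1 RPKM.

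**Figure D1:**
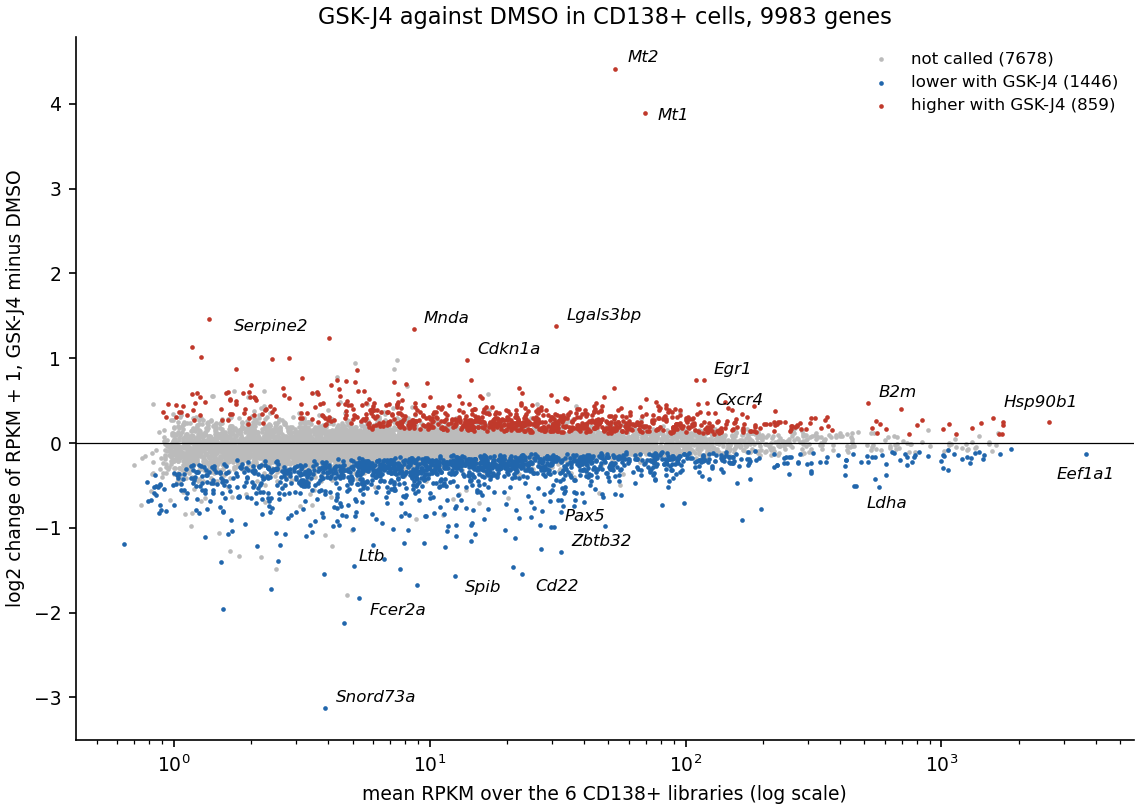
Log2 change with GSK-J4 in CD138+ cells on log2(RPKM + 1) (y axis) against the mean RPKM of the 6 libraries on a log scale (x axis), 1 point per gene tested, coloured by call, with leading genes labelled. Mt1 and Mt2 stand far above all other genes, while most of the 2305 called genes lie within 0.5 log2 units of 0.

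Metallothioneins, small cysteine-rich proteins that bind zinc and copper and are switched on by metal through the factor MTF1, gave the 2 strongest rises. Their promoters are printed because this response is the largest in the comparison and because metal response elements are well described in them. The 250 bases before each start site follow (RefSeq, GRCm38.p6, plus strand), with every match to TGCNCNC in capitals on either strand. This pattern is looser than the core of a metal response element, TGCRCNC, where R is A or G. The Mt1 window is chr8:94178839-94179088 and the Mt2 window chr8:94172368-94172617.
Mt1: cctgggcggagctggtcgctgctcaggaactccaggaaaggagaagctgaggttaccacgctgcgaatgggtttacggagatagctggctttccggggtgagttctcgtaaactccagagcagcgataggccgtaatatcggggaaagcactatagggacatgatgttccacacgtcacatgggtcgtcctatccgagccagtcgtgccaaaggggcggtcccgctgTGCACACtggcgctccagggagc
Mt2: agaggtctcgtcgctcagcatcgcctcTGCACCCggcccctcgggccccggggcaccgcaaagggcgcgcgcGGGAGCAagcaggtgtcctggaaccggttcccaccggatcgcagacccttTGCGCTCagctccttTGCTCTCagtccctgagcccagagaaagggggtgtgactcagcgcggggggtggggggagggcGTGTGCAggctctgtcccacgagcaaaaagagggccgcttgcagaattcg
The Mt1 window holds 1 match, at bases -23 to -17 from the start. In the Mt2 window there are 5, of which 3 read on the gene's strand and 2 on the opposite strand, and none overlaps another. Those at bases -178 to -172 and -113 to -107 have T in place of R. Bases outside these windows were not searched, so the counts do not give all metal response elements of either gene. Of 32851 mouse promoter windows of the same length, 44.4% hold at least 1 match and 1.28% hold 4 or more.

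Mt1 was at 7.70, 7.30 and 8.78 RPKM in the DMSO libraries and at 131, 120.2 and 142 RPKM in the GSK-J4 libraries. Its log2 change was 3.89 (adjusted p = 7.8e-11, limma), a 16.5-fold ratio of means. Every GSK-J4 library was many times above every DMSO library. Mt2 stood at 5.21, 2.94 and 3.60 RPKM with DMSO and at 99.1, 96.3 and 111 RPKM with GSK-J4 (log2 change 4.41 ± 0.17, adjusted p = 1.1e-08, limma). Here and below, ± after a log2 change or a difference of changes is the standard error of the limma fit. Since Mt1 and Mt2 are near-identical copies, reads may have been divided between them and their separate values are uncertain. Slc30a1, a zinc exporter of the plasma membrane that is also an MTF1 target, rose from 2.35, 1.79 and 1.83 RPKM to 2.82, 2.83 and 3.18 RPKM (log2 change 0.40, adjusted p = 0.0055). Those 3 were the only risers among 19 tested genes of metallothioneins and zinc transport, and none fell (15.8% called, against 23.1% of all genes, median log2 change 0.07). Mtf1 itself had a log2 change of 0.02 (chosen after its value was seen). All 3 risers held a TGCNCNC match before their start, as did 8 of the 13 uncalled members with a window and 56.3% of all tested genes with one. In GL7+ cells Mt1 and Mt2 had log2 changes of 3.53 and 4.06, and their difference between fractions did not pass (adjusted p = 0.16 and 0.46).

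The other strong risers came from several functions. Lgals3bp, a secreted glycoprotein that binds galectins, went from 15.9, 16.3 and 18.2 RPKM with DMSO to 46.4, 42.2 and 47.7 RPKM with GSK-J4 (log2 change 1.38 ± 0.07, adjusted p = 1.5e-07). Serpine2, a secreted inhibitor of serine proteases, was at 1.75, 2.05 and 2.22 RPKM and then at 5.46, 5.81 and 7.09 RPKM (log2 change 1.24). Slpi, a secreted inhibitor of leukocyte elastase, was at 73.2, 90.5 and 82.9 RPKM with DMSO and at 124, 151 and 139.8 RPKM with GSK-J4 (log2 change 0.75), a call lost with all 15 libraries in the fit (adjusted p = 0.25). None of these 3 genes had overlapping groups, which naming among the largest changes required. Vkorc1, which recycles vitamin K, rose from 11.2, 10.5 and 10.1 to 18.4, 17.5 and 19.5 RPKM (log2 change 0.75, adjusted p = 4.8e-05). Ccdc88a, a large protein that binds actin and G proteins, and Cers6, a ceramide synthase, rose by 0.72 and 0.71 log2 units. Hist1h2bc, a histone H2B gene whose transcripts can carry a poly(A) tail, rose by 0.69 (adjusted p = 0.078 with all 15 libraries).

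**Figure D2:**
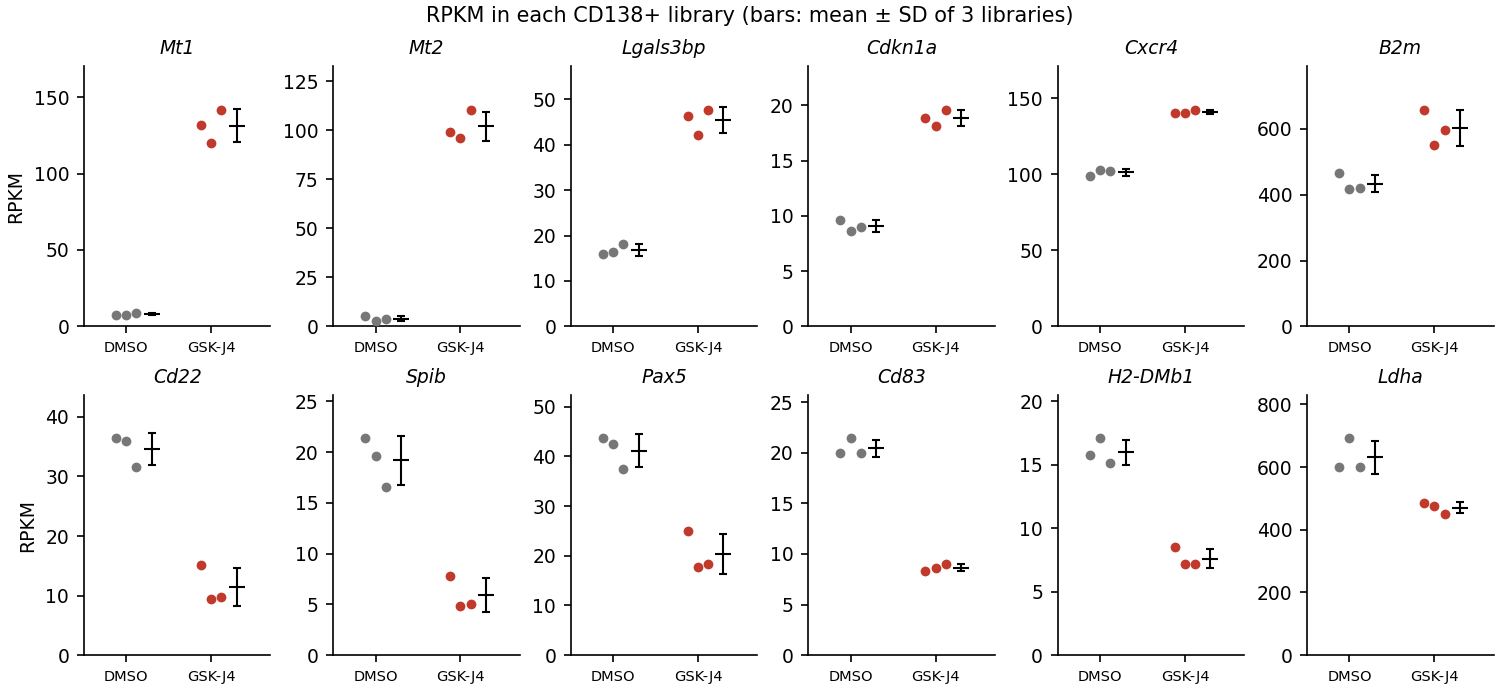
RPKM of 12 genes (y axes, 1 panel per gene) in each CD138+ library, grouped by treatment, with 1 point per library and the mean with a bar of 1 SD for each group. The 3 GSK-J4 points lie wholly to one side of the 3 DMSO points in every panel. Naming among the largest changes required this of Mt1, Mt2, Lgals3bp, Cdkn1a, Cd22 and Spib.

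Many members of a list of interferon-stimulated genes rose. The list, of antiviral effectors, sensors and their regulators, does not hold all such genes. Of its 51 tested members 20 rose and 5 fell, with a median log2 change of 0.14. Some of these genes carry an interferon-stimulated response element close to their start, and the windows of a pair of risers, Isg15 and Oas1a, are printed to show it. Both genes lie on the minus strand and are written in their own 5′ to 3′ direction, 250 bases before the start (RefSeq, GRCm38.p6). The Isg15 window is chr4:156200819-156201068 and the Oas1a window chr5:120907526-120907775, and capitals mark the motif, which is GAAA, any 2 bases and GAAA again.
Isg15: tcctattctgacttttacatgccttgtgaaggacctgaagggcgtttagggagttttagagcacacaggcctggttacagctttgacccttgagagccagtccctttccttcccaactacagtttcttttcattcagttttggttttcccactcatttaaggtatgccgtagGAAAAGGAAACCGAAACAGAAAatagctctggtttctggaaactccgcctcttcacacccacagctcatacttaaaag
Oas1a: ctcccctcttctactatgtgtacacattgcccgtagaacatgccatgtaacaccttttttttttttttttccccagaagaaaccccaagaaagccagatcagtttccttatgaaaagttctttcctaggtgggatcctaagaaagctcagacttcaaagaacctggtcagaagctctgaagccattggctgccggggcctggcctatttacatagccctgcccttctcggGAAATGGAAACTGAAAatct
Isg15 has 3 overlapping matches in 1 run, at bases -78 to -57. Oas1a has 2 overlapping matches in 1 run at bases -20 to -5. Of all 32851 windows, 2.98% hold a match on either strand and 0.18% hold 2 or more. In the list, a match stood before 7 of the 16 risers with a window, 2 of the 4 fallers and 6 of the 19 uncalled members, against 3.34% of all tested genes.

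Isg15, a ubiquitin-like protein attached to others after interferon, was at 37.2, 38.3 and 38.8 RPKM with DMSO and 52.3, 51.3 and 48.9 RPKM with GSK-J4 (log2 change 0.41, adjusted p = 0.00047; chosen after its values were seen). Usp18, the enzyme that takes ISG15 off again, was at 3.44, 3.45 and 3.29 RPKM and 5.79, 7.32 and 7.98 RPKM (log2 change 0.86 ± 0.14, adjusted p = 0.0011). Oas1a, a sensor of double-stranded RNA, was at 0.821, 1.05 and 0.965 RPKM and 2.72, 2.47 and 2.49 RPKM (log2 change 0.87), and its reads may be shared with near-identical Oas1 copies. All GSK-J4 libraries exceeded all DMSO libraries for these 3 genes, as naming among the largest changes required of Usp18. Mnda, a nuclear protein of the interferon-inducible p200 family with close relatives, rose by 1.35 log2 units, from 4.68, 4.11 and 4.59 to 12.6, 13.1 and 12.9 RPKM. Eif2ak2, the RNA-activated kinase PKR, rose by 0.44 (adjusted p = 0.00024).

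Other members of the interferon list, picked once their values were known, show the spread within it. The RNA sensor Ddx58 (RIG-I) rose by 0.42 log2 units, Zbp1, a sensor of Z-form nucleic acid, by 0.52 and Trim30a by 0.52. The sensor Ifih1 (MDA5) fell by 0.32 and the GTPase Gbp2 by 0.86, and these calls were lost in some alternatives, that of Ifih1 under the mouse block (adjusted p = 0.11) and that of Gbp2 without the filter (adjusted p = 0.056). Mx1 (-0.03) and Ifit1 (-0.17) did not pass the test. Ifit2, Ifit3, Mx2, Rsad2 and Ifi44, strong targets of type I interferon, stayed under the expression limit. In the GL7+ fraction 15 members of the list rose and 6 fell.

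In the list of MHC class I and peptide loading 4 of 19 tested members rose and 1 fell (26.3% called, against 23.1% of all genes, median log2 change 0.11). B2m, the light chain of all class I molecules, was at 464, 416 and 420.2 RPKM with DMSO and 658, 549.7 and 596 RPKM with GSK-J4 (log2 change 0.47 ± 0.06, adjusted p = 0.00032). Tapbp, which loads peptides onto class I, rose by 0.21 (adjusted p = 0.0024). The peptide pump Tap1 and the heavy chain H2-K1 were also called (adjusted p = 0.036 and 0.042), but both calls were lost under the mouse block (adjusted p = 0.09 and 0.062), with all 15 libraries and at thinned depth.

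Several targets of p53, the factor that answers DNA damage, rose. In the list of p53 and its targets 9 of 24 tested members rose and 1 fell (median log2 change 0.02). Cdkn1a (p21), an inhibitor of cyclin-dependent kinases, was at 9.64, 8.60 and 9.01 RPKM with DMSO and at 18.8, 18.1 and 19.6 RPKM with GSK-J4 (log2 change 0.98 ± 0.07, adjusted p = 1.8e-06). Mdm2, the ubiquitin ligase that degrades p53, went from 36.7, 36.5 and 38.1 to 51.4, 52.2 and 52.2 RPKM (log2 change 0.48, adjusted p = 4.6e-06). Both groups were tight and did not overlap, and for Cdkn1a naming among the largest changes required this lack of overlap. Ccng1, a cyclin induced by p53, and Zmat3, an RNA-binding p53 target, rose by 0.34 and 0.44 log2 units. The faller was Bbc3 (PUMA), a BH3-only killer protein, at -0.37, and Bax (-0.08), Pmaip1 (-0.00) and Trp53 (-0.03) did not pass (these 4 were chosen after their values were seen).

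Some genes of entry into S phase and of replication rose too. Of 26 tested CDK inhibitors, G1/S cyclins and E2F genes, 8 rose and 1 fell (median log2 change 0.10). Ccne2, a cyclin that drives entry into S phase, rose from 6.65, 6.46 and 8.25 to 14.4, 13.04 and 9.69 RPKM (log2 change 0.71, adjusted p = 0.0013), and E2f8, a repressor of E2F targets, rose by 0.33. The faller was Cdkn2a, the locus of p16 and p19ARF, at 17.8, 19.4 and 17.9 RPKM with DMSO and 10.01, 11.8 and 15.3 RPKM with GSK-J4 (log2 change -0.55, adjusted p = 0.0028). Its DMSO and GSK-J4 libraries did not overlap. Of 50 DNA replication genes, 18 rose and none fell, with a median of 0.12. With all 15 libraries in the fit 12 rises were called in this list. Pcna, the sliding clamp of DNA polymerases, was at 324, 305 and 327 RPKM and 408, 395 and 378 RPKM (log2 change 0.30). Rrm2, a subunit of ribonucleotide reductase, rose by 0.24, Clspn, a checkpoint mediator at replication forks, by 0.35, and Cdc6, which loads the MCM helicase, by 0.29. Mitosis genes showed no common direction: 7 of 50 rose and 5 fell (24.0% called, against 23.1% of all genes, median 0.02). With all 15 libraries 1 of these 12 calls was left. Cenpa, the centromeric histone, and Cdc25b, a phosphatase that activates CDK1, fell by 0.27 and 0.31, while Hmmr, a spindle protein, rose by 0.20 and Ncaph, a condensin subunit, by 0.18. Of these 4 calls, those of Cenpa, Cdc25b and Ncaph were lost with all 15 libraries (adjusted p = 0.27, 0.13 and 0.13).

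Several B cell identity genes that were detected in the CD138+ fraction fell. Among 28 tested transcription factors of B cells, 11 fell and 1 rose (median log2 change -0.07). Pax5, the factor that holds B cell identity, was at 43.6, 42.4 and 37.4 RPKM with DMSO and 24.9, 17.8 and 18.3 RPKM with GSK-J4 (log2 change -0.99 ± 0.10, adjusted p = 4.4e-05). Spib, an ETS factor of B cells that opposes plasma cell fate, was at 21.4, 19.6 and 16.6 RPKM and 7.82, 4.89 and 5.02 RPKM (log2 change -1.57). Id3, an inhibitor of E proteins, fell from 8.68, 7.85 and 7.07 to 2.69, 1.91 and 2.16 RPKM (log2 change -1.45). For all 3 the highest GSK-J4 library lay below the lowest DMSO library, as naming among the largest changes required of Spib and Id3. Irf8, a factor of the germinal centre and of antigen presentation, fell by 0.53, and Zbtb32, a zinc finger repressor induced in activated B cells, went from 46.9, 47.3 and 45.2 to 21.1, 17.8 and 16.8 RPKM (log2 change -1.28).

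Not every B cell regulator followed. Bach2, a repressor that delays plasma cell formation, was at 5.06, 4.44 and 3.90 RPKM with DMSO and 3.89, 4.08 and 4.05 RPKM with GSK-J4 (adjusted p = 0.35). Bcl6, the germinal centre regulator, was at 1.51, 1.15 and 1.58 RPKM and 1.51, 1.54 and 1.70 RPKM (adjusted p = 0.46). In both genes the groups overlapped. The 95% interval of the log2 change was -0.31 to 0.07 for Bach2 and -0.10 to 0.30 for Bcl6. The riser was Tcf12, an E protein, at 0.27 (chosen after its value was seen).

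Most members of a list of B cell receptor, signalling and surface genes fell. Of 28 tested members 17 fell and 5 rose, with a median log2 change of -0.21. Blk, a SRC-family kinase of B cells, was at 19.2, 19.5 and 18.5 RPKM with DMSO and 10.9, 10.3 and 10.5 RPKM with GSK-J4 (log2 change -0.80 ± 0.07, adjusted p = 2.4e-05). Bank1, an adaptor that links the receptor to calcium release, was at 12.8, 13.1 and 12.2 RPKM and 8.35, 8.01 and 7.12 RPKM (log2 change -0.64). The tetraspanin Cd37 fell by 0.58 and Sh3bp5, which binds the kinase BTK, fell by 0.70. None of these 4 genes had overlapping groups.

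Several further members of this list are given after their values were seen. Ms4a1 went from 70.2, 66.8 and 66.6 to 48.6, 45.05 and 39.1 RPKM (log2 change -0.61). The receptor chains Cd79a and Cd79b fell by 0.23 and 0.22, the first of them lost with all 15 libraries (adjusted p = 0.13). In the opposite direction, the adaptor Blnk rose by 0.22. The kinases Syk (-0.07) and Lyn (-0.06) did not pass.

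Inhibitory co-receptors, which dampen signals from the B cell receptor, were called in 1 direction: 10 of 16 tested members fell and none rose (median log2 change -0.45). Cd22, a sialic acid-binding receptor with inhibitory motifs, was at 36.4, 36.03 and 31.6 RPKM with DMSO and at 15.1, 9.50 and 9.76 RPKM with GSK-J4 (log2 change -1.54 ± 0.14, adjusted p = 1.3e-05). Cd72, a lectin-like inhibitory receptor, was at 22.3, 17.8 and 18.5 RPKM and 10.9, 9.53 and 8.07 RPKM (log2 change -0.97). The highest GSK-J4 library stayed below the lowest DMSO library for both, as naming among the largest changes required of Cd22. The phosphatase Ptpn6 (SHP-1), which these receptors recruit, fell by 0.50, and the Fc receptor-like protein Fcrl1 fell by 0.60.

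MHC class II genes, which present peptides to helper T cells, fell in 8 of 15 tested members and rose in 1 (median log2 change -0.42). Ciita, the co-activator that switches the class II genes on, was at 3.81, 4.40 and 3.05 RPKM with DMSO and 1.65, 1.11 and 1.06 RPKM with GSK-J4 (log2 change -1.06 ± 0.11, adjusted p = 4.4e-05). The peptide exchange factor gene H2-DMb1 was at 15.7, 17.1 and 15.1 RPKM and 8.50, 7.17 and 7.14 RPKM (log2 change -0.98), its neighbour H2-DMb2 fell by 0.77, and H2-Ob, a brake on the same exchange, by 0.84. All 4 separated by treatment in every library. By contrast the invariant chain Cd74 was at 1462, 1594 and 1519.6 RPKM and 1462, 1504 and 1650.2 RPKM (adjusted p = 0.88), and H2-Ab1 had a log2 change of -0.15 that did not pass (both chosen after their values were seen). The riser was the protease Ctss, which trims the invariant chain, at 0.14 (adjusted p = 0.03; also chosen so), a call lost with all 15 libraries (adjusted p = 0.088) and in other alternatives.

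Among co-stimulatory and activation molecules 5 of 15 tested members fell and 2 rose (median log2 change -0.09). Fcer2a (CD23), the low-affinity IgE receptor of follicular B cells, was at 7.85, 10.4 and 8.24 RPKM with DMSO and 1.94, 1.73 and 1.60 RPKM with GSK-J4 (log2 change -1.83 ± 0.08, adjusted p = 4e-08). Cd83, an activation marker, was at 19.9, 21.4 and 19.9 RPKM and 8.33, 8.57 and 8.997 RPKM (log2 change -1.15), and Cd86, the ligand of CD28, was at 4.23, 4.50 and 3.30 RPKM and 2.15, 1.02 and 1.10 RPKM (log2 change -1.07). No library of one treatment fell within the range of the other for these genes. For Fcer2a, naming among the largest changes required this. Cd24a, a heavily glycosylated surface protein, rose from 759, 745 and 775 to 958, 885 and 902 RPKM (log2 change 0.27).

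Other fallers of large size came from outside these lists. Gimap3, a GTPase of lymphocyte survival, was at 41.05, 38.8 and 35.7 RPKM and 20.3, 14.7 and 12.7 RPKM (log2 change -1.25). Gypc, a membrane skeleton protein, fell by 1.23, Plscr1, a lipid scramblase, by 1.18, and Cyb561a3, a cytochrome of the lysosome membrane, by 1.18 (adjusted p = 6.7e-07). All 4 had no overlap between treatments, a condition for naming them among the largest changes. The rows of small RNAs Snord73a, Mir703 and Mir3064 were also among the largest falls. Snord73a was at 9.12, 6.32 and 8.03 RPKM with DMSO, worth at most 6 reads, and at 0 in all 3 GSK-J4 libraries. Mir703 and Mir3064 had log2 changes of -1.54 and -1.47 on at most 10 and 34 reads, and lost their calls in some alternatives (adjusted p from 0.054 to 0.068), with a log2 change of -0.86 for Mir3064 under the mouse block (adjusted p = 0.061). These rows are under 200 bases, as are 111 of the genes tested, and are uncertain in poly(A) libraries.

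**Figure D3:**
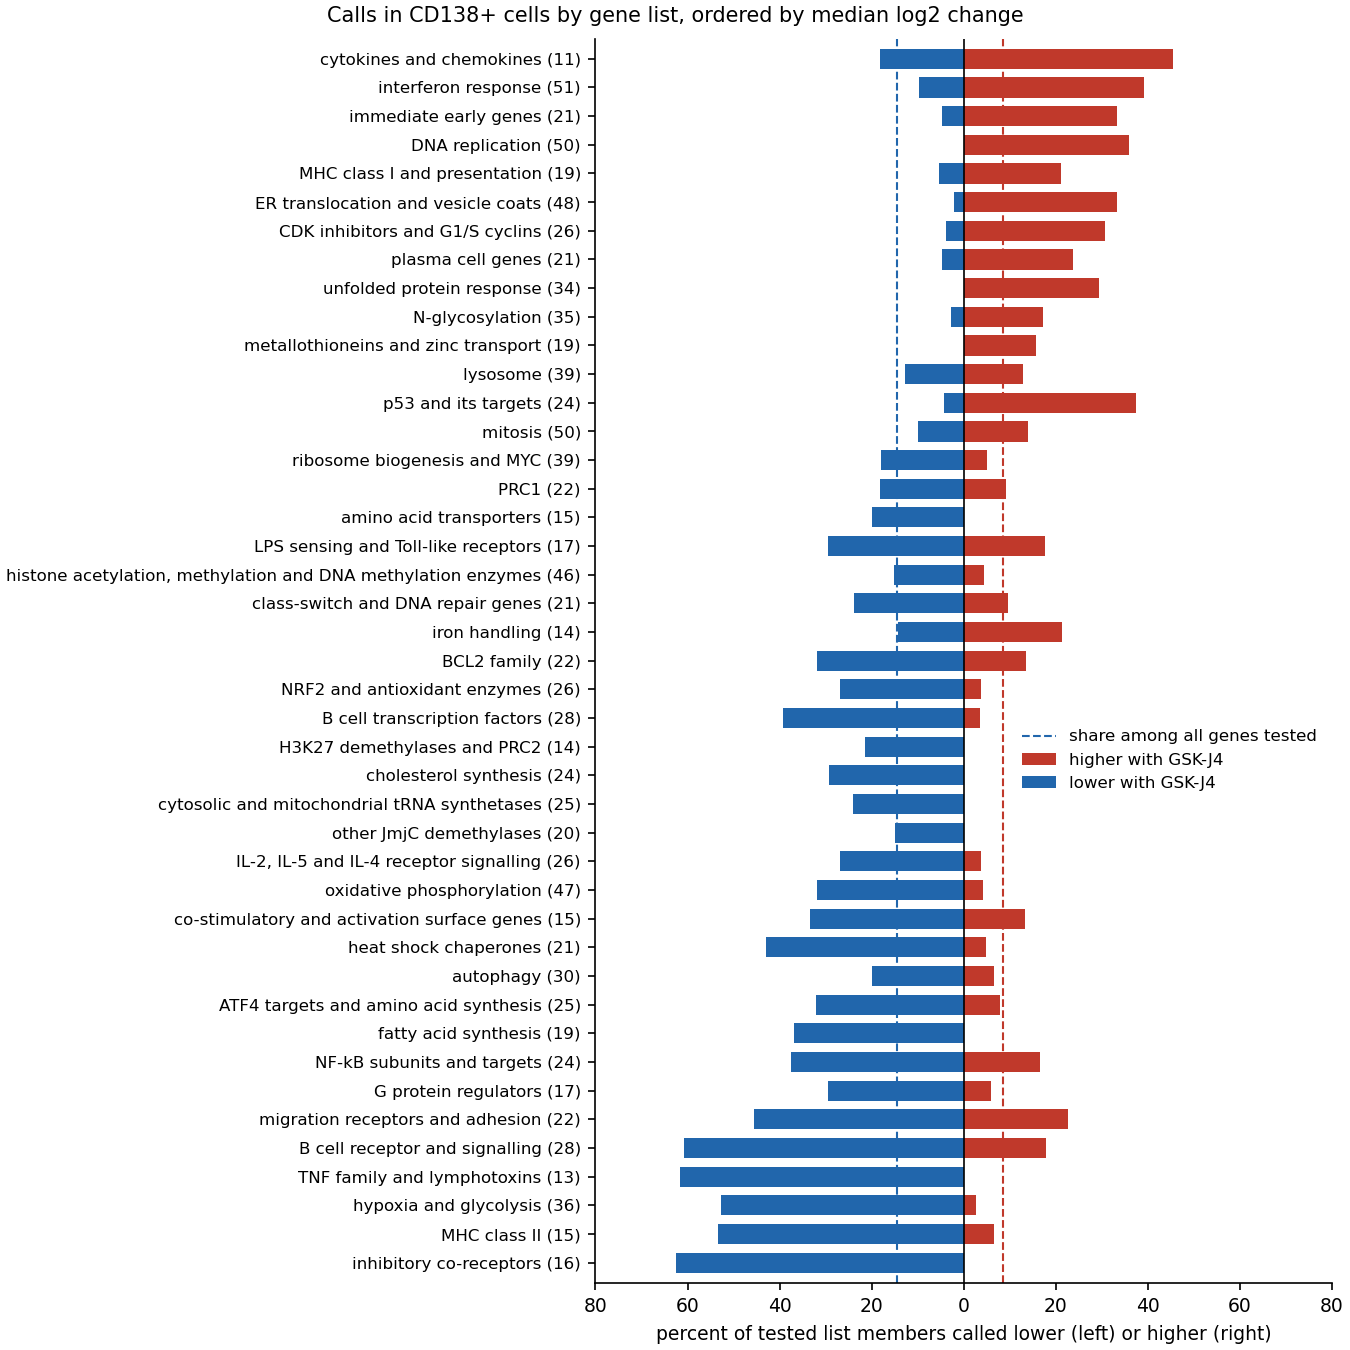
Percent of tested members called higher (right) or lower (left) with GSK-J4 in CD138+ cells (x axis) for each list with at least 10 tested members (y axis), dashed lines marking the 8.60% and 14.5% of all 9983 tested genes. B cell receptor, inhibitory co-receptor, TNF family, MHC class II and hypoxia and glycolysis lists reach furthest to the lower side, and the cytokine, interferon, p53 and DNA replication lists to the higher side.

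Migration receptors moved in both directions: 10 of 22 tested members fell and 5 rose (median log2 change -0.18). Cxcr4, the receptor that guides plasma cells to bone marrow, was at 98.6, 103 and 102 RPKM with DMSO and 140.2, 140.4 and 142 RPKM with GSK-J4 (log2 change 0.48 ± 0.05, adjusted p = 3.5e-05). Itga4, a chain of the adhesion receptor VLA-4, was at 71.3, 69.2 and 72.4 RPKM and 93.8, 96.3 and 102 RPKM (log2 change 0.45). Both were higher in every GSK-J4 library. Icam1, the ligand of LFA-1, rose by 0.32. Klf2, a factor that keeps lymphocyte homing genes on, fell from 7.11, 6.77 and 7.27 to 3.18, 2.57 and 3.24 RPKM (log2 change -1.01, adjusted p = 5.7e-05), again without overlap. Picked after its values were seen, the homing receptor gene Ccr7 fell by 1.01.

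TNF family genes fell in 8 of 13 tested members and rose in none (median log2 change -0.25), a count that came to 5 at thinned depth. Ltb, a chain of membrane lymphotoxin, was at 12.5, 12.8 and 10.03 RPKM with DMSO and 4.43, 3.36 and 2.94 RPKM with GSK-J4 (log2 change -1.49 ± 0.14, adjusted p = 2.7e-05). Lta, its partner, was low, at 1.94, 1.24 and 1.19 RPKM and 0.579, 0.563 and 0.106 RPKM (log2 change -0.80), Traf1, a signalling adaptor, fell by 0.51 and Tnfaip8 by 0.25. NF-kB subunits and targets fell in 9 of 24 and rose in 4 (median -0.13). The subunit genes Nfkb1 and Nfkb2 fell by 0.36 and 0.39 and the ubiquitin ligase Birc3 by 0.30, while Rel (0.06) and Rela (0.12), chosen after their values were seen, did not pass.

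Cytokines ran the other way, with 5 of 11 tested members higher and 2 lower (median log2 change 0.31). Il10, an anti-inflammatory cytokine that plasmablasts secrete, was at 43.05, 37.4 and 39.1 RPKM with DMSO and 56.4, 48.6 and 49.4 RPKM with GSK-J4 (log2 change 0.36, adjusted p = 0.0055), a call lost with all 15 libraries (adjusted p = 0.11). Ebi3, a subunit of IL-27 and IL-35, was at 29.3, 29.9 and 27.3 RPKM and 36.1, 34.9 and 37.1 RPKM (log2 change 0.31). Il16, a chemoattractant, fell by 0.27, and Mif, a cytokine with tautomerase activity, by 0.22, the latter lost with all 15 libraries (adjusted p = 0.062).

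Genes that receive the signals of the culture changed too. Of 26 tested genes of IL-2, IL-5 and IL-4 receptor signalling 7 fell and 1 rose (median log2 change -0.09). Il2ra, the high-affinity chain of the IL-2 receptor, was at 48.8, 52.2 and 47.3 RPKM with DMSO and 37.3, 34.8 and 35.95 RPKM with GSK-J4 (log2 change -0.45 ± 0.05, adjusted p = 4.4e-05). Il2rb, the chain shared with IL-15, was at 6.40, 5.55 and 6.82 RPKM and 3.03, 3.42 and 3.71 RPKM (log2 change -0.73). The IL-10 receptor chain Il10ra fell by 0.84 and the factor Stat6, which carries the IL-4 signal, by 0.52. For these 4 the treatments did not overlap. Il5ra fell by 0.26 (adjusted p = 0.019, and 0.053 to 0.068 without any of 3 CD138+ libraries) and Socs2, a feedback inhibitor of STAT5 signals, rose by 0.31 (adjusted p = 0.0049), both chosen after their values were seen.

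Toll-like receptor genes rose in 3 and fell in 5 of 17 tested members, with a median log2 change of -0.03 that came to 0.04 under quantile normalization. Tlr7, a sensor of single-stranded RNA, was at 37.5, 41.8 and 41.6 RPKM with DMSO and 50.4, 54.9 and 53.3 RPKM with GSK-J4 (log2 change 0.38 ± 0.05, adjusted p = 0.00025). Tlr1, a partner of TLR2, went from 5.77, 5.48 and 4.49 to 2.98, 1.92 and 2.38 RPKM (log2 change -0.87), and Tlr9, a sensor of DNA, from 2.89, 2.20 and 1.68 to 1.02, 0.672 and 0.890 RPKM (log2 change -0.80). Ly86 (MD-1), the partner of the LPS-related receptor CD180, fell by 0.37. Tlr4, the LPS receptor itself, had a log2 change of 0.04 that did not pass (adjusted p = 0.74; chosen after its value was seen).

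Most plasma cell genes did not pass the test. Of 21 tested plasma cell genes 5 rose and 1 fell (median log2 change 0.10). Ell2, an elongation factor that favours secreted antibody mRNA, was at 131, 127 and 136 RPKM with DMSO and 176, 172 and 167 RPKM with GSK-J4 (log2 change 0.39 ± 0.05, adjusted p = 0.00014), without overlap. Pou2af1 (OCA-B), a co-activator at antibody genes, rose by 0.22 (adjusted p = 0.0013). Tnfrsf13b (TACI), a receptor for BAFF and APRIL, rose by 0.16, a call lost with all 15 libraries and at thinned depth (adjusted p = 0.14 and 0.055). Ly6c2 rose by 0.39, may share reads with near-identical Ly6c1, and was lost with all 15 libraries (adjusted p = 0.11).

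The regulators of plasma cell fate moved by little. Prdm1 was at 131, 126 and 126 RPKM with DMSO and at 142, 146 and 138 RPKM with GSK-J4 (log2 change 0.16 ± 0.05, adjusted p = 0.029). Its call was lost under the mouse block (adjusted p = 0.059), with all 15 libraries (0.34) and at thinned depth (0.052). Irf4 was at 343, 336 and 372 RPKM and 378, 375 and 371 RPKM (adjusted p = 0.11), and Xbp1 at 797, 826 and 893 RPKM and 859.7, 944 and 1001 RPKM (adjusted p = 0.096). Their groups overlapped, as did those of Sdc1 (adjusted p = 0.07). The 95% interval of the log2 change was 0.01 to 0.19 for Irf4, 0.02 to 0.29 for Xbp1 and 0.06 to 0.51 for Sdc1. Each of these 3 passed in some alternatives, Sdc1 with voom on recovered reads (adjusted p = 0.008), Xbp1 with quantile normalization (0.033) and Irf4 without DMSO replicate 3 (0.033).

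Some genes of the secretory machinery rose slightly. In the unfolded protein response list 10 of 34 tested members rose and none fell (median log2 change 0.09), of which 4 were called with all 15 libraries. Calr, a calcium-binding chaperone of the endoplasmic reticulum, was at 1399, 1393 and 1471 RPKM with DMSO and 1742, 1730.2 and 1777 RPKM with GSK-J4 (log2 change 0.30 ± 0.04, adjusted p = 0.00014). Hsp90b1 (GRP94), its neighbour in that compartment, was at 2375, 2331 and 2504 RPKM and 2837, 2823 and 2927 RPKM (log2 change 0.25), and since it holds the same rank in all 6 libraries, it had no change under quantile normalization. The DnaJ protein Dnajb11 rose by 0.22 and the disulphide isomerase Pdia3 by 0.17, the latter lost with all 15 libraries (adjusted p = 0.089).

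Genes of entry into the endoplasmic reticulum and of vesicle coats rose in 16 of 48 tested members and fell in 1 (median log2 change 0.11). Sec31a, a coat protein of vesicles leaving the reticulum, was at 88.04, 91.6 and 94.8 RPKM with DMSO and 108, 112 and 119.9 RPKM with GSK-J4 (log2 change 0.31 ± 0.04, adjusted p = 0.00049), without overlap. Sec23a of the same coat rose by 0.28, and Ssr2 and Srpr, which serve nascent chains at the membrane, by 0.26 and 0.23. N-glycosylation genes rose in 6 of 35 and fell in 1 (median 0.08). Dad1 and Ost4, subunits of the oligosaccharyltransferase, rose by 0.38 and 0.29, the mannosyltransferase Alg3 by 0.47, and Gfpt1, which feeds the hexosamine pathway, by 0.26.

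In the list of glycolysis and other HIF targets 19 of 36 tested members fell and 1 rose, with a median log2 change of -0.29. Ldha, which turns pyruvate into lactate, was at 602, 692 and 601 RPKM with DMSO and 486, 476 and 451 RPKM with GSK-J4 (log2 change -0.42 ± 0.07, adjusted p = 0.00087). Pgk1 was at 661, 725 and 622 RPKM and 488, 478 and 433 RPKM (log2 change -0.52), and the glycolytic enzymes Aldoa and Pgam1 fell by 0.37 and 0.36. All 4 separated by treatment, as naming by RPKM difference required of Pgk1. The lactate exporter Slc16a3 went from 35.1, 41.95 and 30.6 to 20.6, 20.02 and 13.5 RPKM (log2 change -0.96), while Hif1a (-0.03) did not pass and Vegfa, the growth factor of blood vessels, rose by 0.29 (adjusted p = 0.07 with all 15 libraries); these 3 were chosen after their values were seen. In the GL7+ fraction 18 members fell and 2 rose, and the difference between fractions was called for 1 member.

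Oxidative phosphorylation genes fell in 15 of 47 tested members and rose in 2 (median log2 change -0.09), and 8 of the falls were called with all 15 libraries. Atp5a1 and Atp5e, subunits of ATP synthase, fell by 0.25 and 0.43. Atp5e was at 187, 210.5 and 219 RPKM with DMSO and 149, 156 and 152 RPKM with GSK-J4, without overlap. The complex III subunits Cyc1 and Uqcrfs1 fell by 0.25 and 0.29, the latter lost with all 15 libraries (adjusted p = 0.092).

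Some genes of lipid synthesis fell slightly. In cholesterol synthesis 7 of 24 tested genes fell and none rose (median log2 change -0.08), and in fatty acid synthesis 7 of 19 fell and none rose (median -0.13). Lss, which closes the sterol ring, was at 32.3, 31.9 and 31.2 RPKM with DMSO and 25.01, 25.9 and 25.7 RPKM with GSK-J4 (log2 change -0.31 ± 0.04, adjusted p = 0.00014). Acat2, at the first step of the pathway, fell by 0.35. Tm7sf2 and Fdps fell by 0.34 and 0.23, and Fdps was lost with all 15 libraries (adjusted p = 0.2). Acly, the source of cytosolic acetyl-CoA, fell by 0.28, the desaturases Scd1 and Scd2 by 0.26 and 0.22, and Fads2 by 0.30, a call lost with all 15 libraries (adjusted p = 0.18).

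Targets of the stress factor ATF4 and amino acid synthesis genes fell in 8 of 25 and rose in 2 (median log2 change -0.11). Trib3, a pseudokinase that ATF4 induces, was at 8.16, 10.1 and 7.99 RPKM with DMSO and 3.98, 2.78 and 3.01 RPKM with GSK-J4 (log2 change -1.20 ± 0.12, adjusted p = 4.4e-05). Cth, which makes cysteine, was at 15.9, 17.7 and 14.8 RPKM and 9.43, 9.29 and 8.91 RPKM (log2 change -0.74). No GSK-J4 library reached the DMSO range in either gene, as naming among the largest changes required of Trib3. The mitochondrial folate enzymes Mthfd2 and Mthfd1l fell by 0.43 and 0.36. Amino acid transporters fell in 3 of 15 and rose in none (median -0.02): Slc7a3 for cationic amino acids by 0.59, Slc6a9 for glycine by 0.48 and Slc1a4 for neutral amino acids by 0.41. The remaining transporter the rule took, Slc16a10, had a log2 change of 0.28 that did not pass. Of 25 tRNA synthetases 6 fell and none rose (24.0% called, against 23.1% of all genes, median -0.08). Lars2, the mitochondrial leucine enzyme, went from 65.5, 71.5 and 57.1 to 34.2, 36.2 and 26.9 RPKM (log2 change -0.98), and the cytosolic Lars and Wars fell by 0.25 and 0.17. Vars fell by 0.18, a call lost in some alternatives, such as the fit of the 6 CD138+ libraries alone (adjusted p = 0.054).

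Antioxidant genes and NRF2 targets fell in 7 of 26 tested members and rose in 1 (median log2 change -0.07). Prdx3, a mitochondrial peroxidase, was at 76.2, 75.1 and 76.6 RPKM with DMSO and 58.4, 58.3 and 57.5 RPKM with GSK-J4 (log2 change -0.38 ± 0.04, adjusted p = 2.3e-05). Prdx2 fell by 0.31. Pgd, an enzyme that makes NADPH, fell by 0.28, and Gsr, which reduces glutathione, rose by 0.27. The NRF2 targets Nqo1 (-0.19) and Gclm (0.05) did not pass (chosen after their values were seen), though Nqo1 did under the mouse block (adjusted p = 0.02). Among 14 iron genes 3 rose and 2 fell (median -0.04). The transferrin receptor Tfrc rose by 0.19 (adjusted p = 0.069 with all 15 libraries) and the haem-sensing repressor Bach1 by 0.28 (adjusted p = 0.067 with the mouse as a block). Iscu, a scaffold for iron-sulphur clusters, rose by 0.20 and Cisd1, an iron-sulphur protein of mitochondria, fell by 0.23, and both calls were lost with all 15 libraries (adjusted p = 0.068 and 0.19).

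Cytosolic and mitochondrial chaperones fell in 9 of 21 tested members and rose in 1 (median log2 change -0.10), with 4 of the falls called with all 15 libraries. Cct8 and Cct2, subunits of the ring that folds actin and tubulin, fell by 0.23 and 0.18. Cct8 was at 157, 159 and 161 RPKM with DMSO and 137, 134 and 137 RPKM with GSK-J4. Hspa9 and Hspd1, chaperones of mitochondria, fell by 0.19 and 0.20, and Hspd1 was lost with all 15 libraries (adjusted p = 0.32). Of 39 genes of ribosome biogenesis and MYC 7 fell and 2 rose (median -0.01), and 4 of the falls were called at thinned depth. The share called in this list, 23.1%, was that of all genes. Polr1c, a subunit shared by RNA polymerases I and III, fell from 37.5, 41.8 and 38.2 to 27.01, 28.4 and 24.8 RPKM (log2 change -0.53), and Wdr12, a factor of the large ribosomal subunit, fell by 0.28. Myc, the growth regulator, rose from 32.6, 30.2 and 33.8 to 48.2, 40.1 and 40.4 RPKM (log2 change 0.40), and Nolc1, a nucleolar protein, by 0.22.

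The most abundant transcripts with a called change were named by the size of the difference in RPKM. Besides Hsp90b1 and Calr these were Rpl41, which rose from 1634, 1565 and 1578 to 1932, 1818 and 1919 RPKM (log2 change 0.25), Ptma, an acidic nuclear protein, at 0.21, and Rps26 at 0.24. These 3 calls were lost with all 15 libraries (adjusted p = 0.18, 0.13 and 0.35). On the lower side stood the elongation factor Eef1a1, at 3887, 3782 and 3779 RPKM with DMSO and 3609.9, 3473 and 3419 RPKM with GSK-J4 (log2 change -0.12, adjusted p = 0.038), which ranks first in every library and so had no change under quantile normalization. Its call was also lost with scaling by trimmed means (adjusted p = 0.095), the mouse as a block (0.085) and all 15 libraries (0.59). The ribosomal protein genes Rps14, Rps20 and Rpl9 fell by 0.32, 0.24 and 0.30, and Pgk1 was the fifth. Ribosomal protein genes have many processed copies, which makes their single values uncertain.

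The targets of GSK-J4 and the writer of the mark did not pass the test. Kdm6a was at 29.2, 27.6 and 26.3 RPKM with DMSO and 32.2, 30.03 and 27.3 RPKM with GSK-J4 (adjusted p = 0.36), and Kdm6b at 4.34, 4.26 and 3.75 RPKM and 3.74, 3.53 and 3.79 RPKM (adjusted p = 0.47). Ezh2 was at 94.1, 91.9 and 90.4 RPKM and 97.2, 92.2 and 91.6 RPKM (adjusted p = 0.69). The groups overlapped for all 3, with 95% intervals of the log2 change of -0.06 to 0.27, -0.37 to 0.12 and -0.06 to 0.10. Of 14 tested members of the H3K27 demethylases and PRC2, 3 fell and none rose (21.4% called, against 23.1% of all genes, median log2 change -0.08). E130012A19Rik (Epop), a PRC2 partner, went from 6.79, 7.01 and 5.94 to 4.40, 4.17 and 4.93 RPKM (log2 change -0.46), Rbbp4, a histone-binding subunit, fell by 0.20, and Phf19, which reads H3K36 methylation, by 0.25, lost with all 15 libraries (adjusted p = 0.051). Jarid2 (-0.14) did not pass.

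In the PRC1 list 4 of 22 members fell and 2 rose (27.3% called, against 23.1% of all genes, median log2 change -0.01). The sign of that median changed with scaling by trimmed means and with quantile normalization. The PRC1 members Phc2 and Cbx6 fell by 0.39 and 0.32, and Pcgf5 rose by 0.31, a call lost with all 15 libraries (adjusted p = 0.083). Of 20 other JmjC demethylases 3 fell and none rose (median -0.09): Kdm4a and Kdm4b, which act on H3K9 and H3K36, by 0.25 and 0.34, and Kdm5b, which acts on H3K4, by 0.38, the last lost under quantile normalization (adjusted p = 0.066) and other settings. Kdm7a, with a log2 change of -0.20, did not pass. Among 46 enzymes of histone acetylation, histone methylation and DNA methylation 7 fell and 2 rose (19.6% called, against 23.1% of all genes, median -0.03). The DNA methyltransferase Dnmt3a went from 3.68, 3.79 and 3.03 to 2.35, 2.19 and 2.18 RPKM (log2 change -0.47) and the H3K9 methyltransferase Ehmt2 (G9a) fell by 0.25. Dnmt1 rose by 0.15 (adjusted p = 0.051 with the mouse as a block) and the arginine methyltransferase Prmt1 fell by 0.19, lost when any of 3 CD138+ libraries was left out (adjusted p = 0.059 to 0.066). None of the 32 developmental Polycomb targets, such as Hox, Gata4 and Sox2 genes, reached the expression limit with either treatment.

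Cell death genes of the BCL2 family and caspases fell in 7 of 22 tested members and rose in 3 (median log2 change -0.06). Bcl2, which protects mitochondria, was at 7.76, 6.78 and 6.29 RPKM with DMSO and 4.73, 3.79 and 3.24 RPKM with GSK-J4 (log2 change -0.70 ± 0.10, adjusted p = 0.0004). Bid, a BH3-only protein cut by caspases, fell by 0.43. Bcl2a1b, a survival protein under NF-kB, was at 30.03, 27.9 and 29.9 RPKM and 20.6, 11.5 and 9.05 RPKM (log2 change -1.12), and its GSK-J4 libraries were widely spread. It has near-identical copies, so its value is uncertain. Bcl2l11 (BIM) rose from 16.6, 15.99 and 16.8 to 19.7, 21.3 and 20.1 RPKM (log2 change 0.29; chosen after its values were seen).

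Lysosome genes rose in 5 and fell in 5 of 39 (25.6% called, against 23.1% of all genes, median log2 change 0.03). The protease Ctsh fell by 0.75, and Atp6v0a1 of the proton pump and the hexosaminidase Hexa rose by 0.25 and 0.35. Autophagy genes fell in 6 and rose in 2 of 30 (26.7% called, median -0.10). The regulator 1700021K19Rik (Rubcn) fell by 0.37 and the conjugating enzyme Atg3 rose by 0.25. Bnip3l, a receptor for mitophagy, fell by 0.60 (adjusted p = 0.055 without GSK-J4 replicate 4) and Gabarap rose by 0.15 (adjusted p = 0.082 with the mouse as a block). G protein regulators fell in 5 and rose in 1 of 17 (median -0.17): Rgs16, which ends G protein signals, fell from 3.27, 3.06 and 3.20 to 1.99, 0.889 and 1.76 RPKM, Gna13 fell by 0.25, Gnai3 by 0.24 (adjusted p = 0.064 with all 15 libraries), and Gnaq rose by 0.35.

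Class-switch and DNA repair genes fell in 5 and rose in 2 of 21 tested members (median log2 change -0.03). The damage kinase Atm fell by 0.54 and the base excision enzyme Apex1 by 0.31, the last lost with all 15 libraries (adjusted p = 0.14). Few marker genes of other lineages were tested. Cd28 fell by 0.58 and Cd247 (0.04) did not pass among 2 T cell markers, Il2rb was the single NK cell marker, and Flt3 fell by 0.70 while Bst2 rose by 0.19 among 2 dendritic cell markers. Of 4 myeloid markers Cybb fell by 0.14, and Lyz2, Cd68 and Tyrobp did not pass. The calls of Bst2 and Cybb were lost in several alternatives, the mouse block among them (adjusted p = 0.089 and 0.059). No gene of the 10 erythroid and platelet markers reached the limit.

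Changes in GL7+ cells were tested only for the 9983 genes that met the expression limit in CD138+ cells. Of these, 2356 (23.6%) were called in GL7+ cells, 1148 (11.5%) higher and 1208 (12.1%) lower. Of the 859 genes that rose in CD138+ cells 373 (43.4%) also rose in GL7+ cells, which is 32.5% of the risers there, and 24 fell. Of the 1446 that fell, 587 (40.6%) fell in GL7+ cells as well, 48.6% of the fallers there, and 50 rose. Over 9983 genes the log2 changes of the fractions had a Pearson r of 0.53, given as a description, since genes of 1 library are not independent replicates.

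The difference between the fractions was tested directly, as the change in CD138+ cells minus the change in GL7+ cells. It was called for 482 genes (4.83%), 134 (1.34%) with a higher and 348 (3.49%) with a lower change in CD138+ cells. With all 15 libraries 107 genes were called, and leaving out GL7+ DMSO replicate 1 left 216. Leaving out CD138+ DMSO replicate 1, 2 or 3, GL7+ DMSO replicate 3, GL7+ GSK-J4 replicate 3 or CD138+ GSK-J4 replicate 2 left between 247 and 298. Of 56 named genes with a called difference, 24 kept the call in every alternative run and 30 lost it with all 15 libraries.

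For several immediate early genes, which respond within minutes to receptor signals and also to handling of cells, the fractions moved in opposite directions. In CD138+ cells 7 of 21 tested members rose and 1 fell (median log2 change 0.12), in GL7+ cells 1 rose and 12 fell, and the difference was called higher for 9 and lower for none. Of all genes tested, 1.34% had a higher and 3.49% a lower called difference. Egr1, a zinc finger factor of this class, was at 102, 74.9 and 87.6 RPKM with DMSO and 159, 149 and 134 RPKM with GSK-J4 in CD138+ cells. In GL7+ cells it was at 241, 205 and 271 RPKM and 161, 146 and 189.8 RPKM. It thus rose in CD138+ cells (log2 change 0.74, adjusted p = 0.0011) and fell in GL7+ cells (-0.52, adjusted p = 0.0095), with a difference of 1.26 ± 0.17 (adjusted p = 0.0036).

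Ier2, another early response gene, was at 41.6, 38.1 and 42.2 RPKM and 63.4, 64.7 and 64.2 RPKM in CD138+ cells and at 52.1, 56.7 and 59.8 RPKM and 48.2, 46.5 and 52.02 RPKM in GL7+ cells (difference 0.84, adjusted p = 0.00067). Fos, a subunit of AP-1, and Zfp36, which destabilises cytokine mRNAs, also rose in CD138+ and fell in GL7+ cells, with differences of 0.82 and 0.81. The CD138+ call of Fos was lost without the filter (adjusted p = 0.074), with library weights (0.069), at thinned depth (0.072), with all 15 libraries (0.096) and without CD138+ DMSO replicate 2 (0.13) or any 1 CD138+ GSK-J4 library (0.052 to 0.085). That of Zfp36 was lost without CD138+ DMSO replicate 2 (adjusted p = 0.054), and the Fos difference with all 15 libraries (0.082). Dusp1, a phosphatase of MAP kinases, rose by 0.59 in CD138+ cells and had a change of 0.08 in GL7+ cells that did not pass (difference 0.51, lost with all 15 libraries at an adjusted p of 0.067 and in 3 other alternatives). Egr2 did not pass in CD138+ cells (0.30, adjusted p = 0.14, and 0.0058 with the mouse as a block) and changed by -0.51 in GL7+ cells. Its difference of 0.82 lost the call without the filter (adjusted p = 0.085), with all 15 libraries (0.067), at thinned depth (0.087) and in 10 of the 12 fits without 1 library (0.053 to 0.095). Atf3 was the faller in CD138+ cells, at -0.96. Basp1, a membrane protein outside this list, rose by 0.46 in CD138+ cells (adjusted p = 0.052 under the mouse block and 0.24 with all 15 libraries) and fell in GL7+ cells (-0.73). Its difference of 1.18 was lost with all 15 libraries (adjusted p = 0.12).

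**Figure D4:**
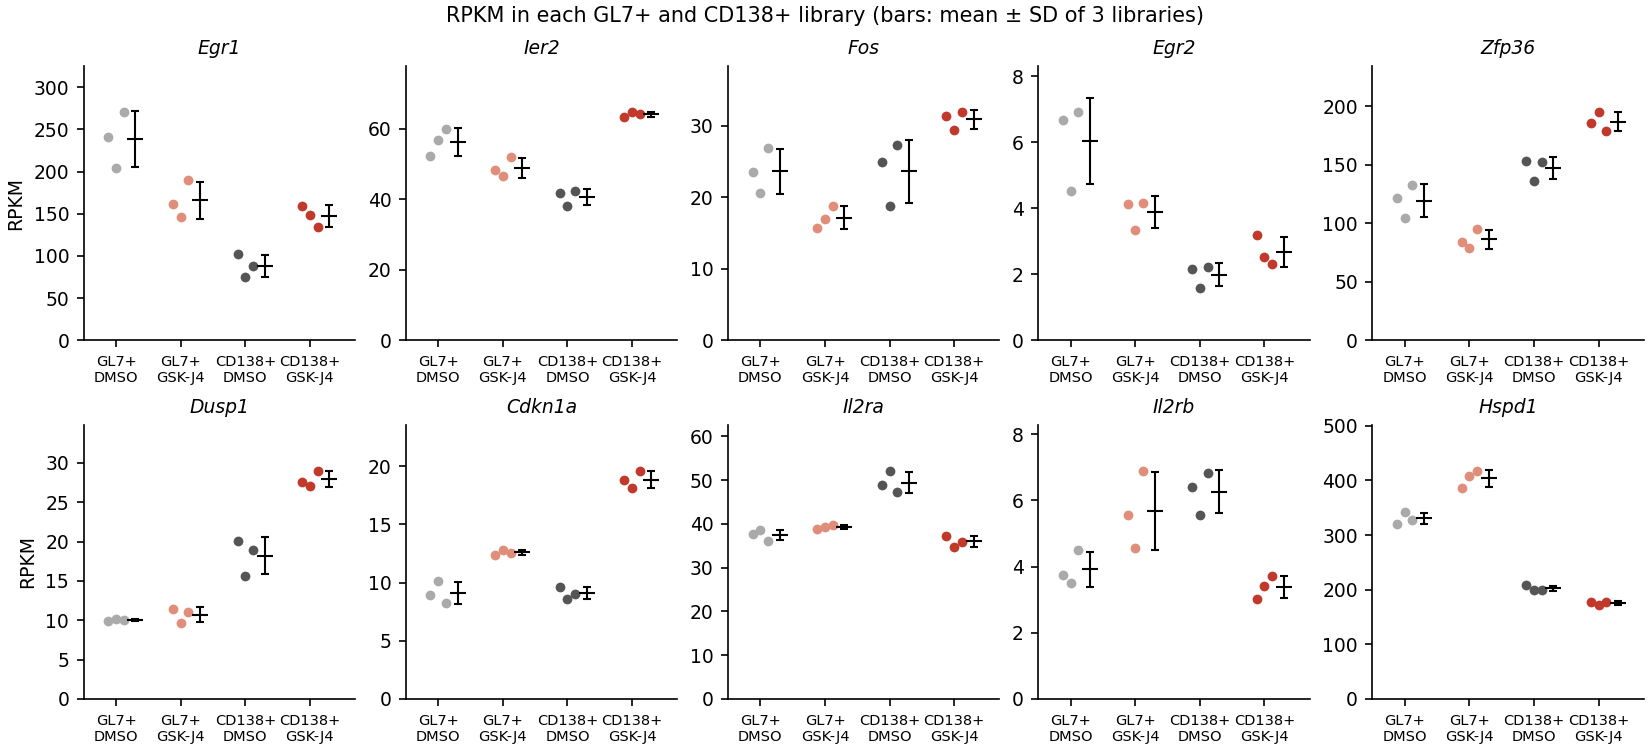
RPKM of 10 genes (y axes, 1 panel each) in the GL7+ and CD138+ libraries with DMSO and with GSK-J4, 3 points per group with the mean and a bar of 1 SD. Egr1, Ier2, Fos and Zfp36 go down with GSK-J4 in GL7+ cells and up in CD138+ cells, while Il2rb and Hspd1 go the other way.

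Several p53 targets had a higher change in CD138+ cells: the difference was called for 5 of 24 members, all higher, against 1.34% of all genes tested. It was 0.54 for Cdkn1a, 0.51 for Zmat3, 0.45 for Ccng1 and 0.27 for Mdm2 (adjusted p = 0.0083, 0.015, 0.0016 and 0.013). With all 15 libraries the differences of Cdkn1a and Mdm2 were lost (adjusted p = 0.36 and 0.087). In GL7+ cells Cdkn1a was at 8.89, 10.2 and 8.25 RPKM with DMSO and 12.4, 12.8 and 12.6 RPKM with GSK-J4. With DMSO the libraries of the fractions overlapped, and with GSK-J4 every CD138+ library was above every GL7+ library. Lgals3bp, Vkorc1, B2m and Tapbp also had higher changes in CD138+ cells, by 0.69, 0.77, 0.40 and 0.23. The B2m difference was lost with all 15 libraries (adjusted p = 0.26), without the filter (0.072), at thinned depth (0.052) and in 5 fits without 1 library (0.058 to 0.079), and that of Tapbp under the mouse block (0.072) and in 12 other alternatives.

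On the lower side stood B cell genes that start from a higher level in GL7+ cells. Spib had a mean of 86.1 ± 4.80 RPKM (SD, n = 3) in GL7+ DMSO cells and of 19.2 ± 2.43 RPKM in CD138+ DMSO cells, with a difference in change of -1.18 (adjusted p = 0.0068). Cd22 differed by -1.0, Id3 by -1.0 (adjusted p = 0.087 at thinned depth), Pax5 by -0.72, Cd83 by -0.65, H2-DMb1 by -0.65, Ciita by -0.59 (adjusted p = 0.082 with the mouse as a block), Blk by -0.54 and Bank1 by -0.48. The Ciita difference was lost in 14 other alternatives too, 10 of them fits without 1 library. Zbtb32 and Gypc, with differences of -1.05 and -1.01, did not pass in GL7+ cells by themselves (adjusted p = 0.064 and 0.15). Ltb had log2 changes of -1.49 and -1.39, and its difference of -0.09 ± 0.20 did not pass.

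Genes of the IL-2 receptor differed between the fractions. In GL7+ cells Il2rb was at 3.73, 3.50 and 4.50 RPKM with DMSO and 5.55, 4.57 and 6.89 RPKM with GSK-J4 (log2 change 0.43), against a fall in CD138+ cells, and the difference was -1.16 ± 0.17 (adjusted p = 0.0045). Il2ra had a change of 0.07 in GL7+ cells that did not pass and a difference of -0.51 (adjusted p = 0.18 with all 15 libraries). For some mitochondrial and chaperone genes the change was lower in CD138+ cells as well: the difference was called lower for 7 of 47 genes of oxidative phosphorylation and 7 of 21 chaperones, and higher for none of either. Among all genes tested it was called lower for 3.49% and higher for only 1.34%. For Hspd1 it was -0.49, for Prdx3 -0.39, for Atp5e -0.42 and for Cyc1 -0.33. With all 15 libraries those of Hspd1, Atp5e and Cyc1 were lost (adjusted p = 0.21, 0.085 and 0.058). In all, that of Atp5e was lost in 7 alternatives and that of Cyc1 in 2.

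For some genes of growth the change was lower in CD138+ cells, though for most members the difference did not pass. Over all genes tested the difference was called lower for 3.49% and higher for 1.34%. DNA replication genes rose in 41 of 50 members in GL7+ cells against 18 in CD138+ cells, and the difference was called lower for 8 and higher for none, Rrm2 among them (-0.25, adjusted p = 0.11 with all 15 libraries). Ribosome biogenesis genes rose in 22 of 39 members in GL7+ cells against 2, with the difference called lower for 7 and higher for none (Wdr12 -0.34, adjusted p = 0.11 with all 15 libraries). For the unfolded protein response, 19 of 34 members rose in GL7+ cells against 10, with the difference called lower for 5 and higher for none (Hsp90b1 -0.24, adjusted p = 0.058 with the mouse as a block). The Hsp90b1 difference was also lost in 12 other alternatives, 9 of them fits without 1 library. Irf4 rose in GL7+ cells (0.39, adjusted p = 0.00011) and its difference was -0.29 (adjusted p = 0.097 with all 15 libraries), and Ezh2 rose there too (0.29) with a difference of -0.27. In the H3K27 demethylase and PRC2 list the difference was called lower for 4 members. Phf19, among them, lost that call under the mouse block (adjusted p = 0.075) and in 11 other alternatives, 8 of them fits without 1 library.

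**Figure D5:**
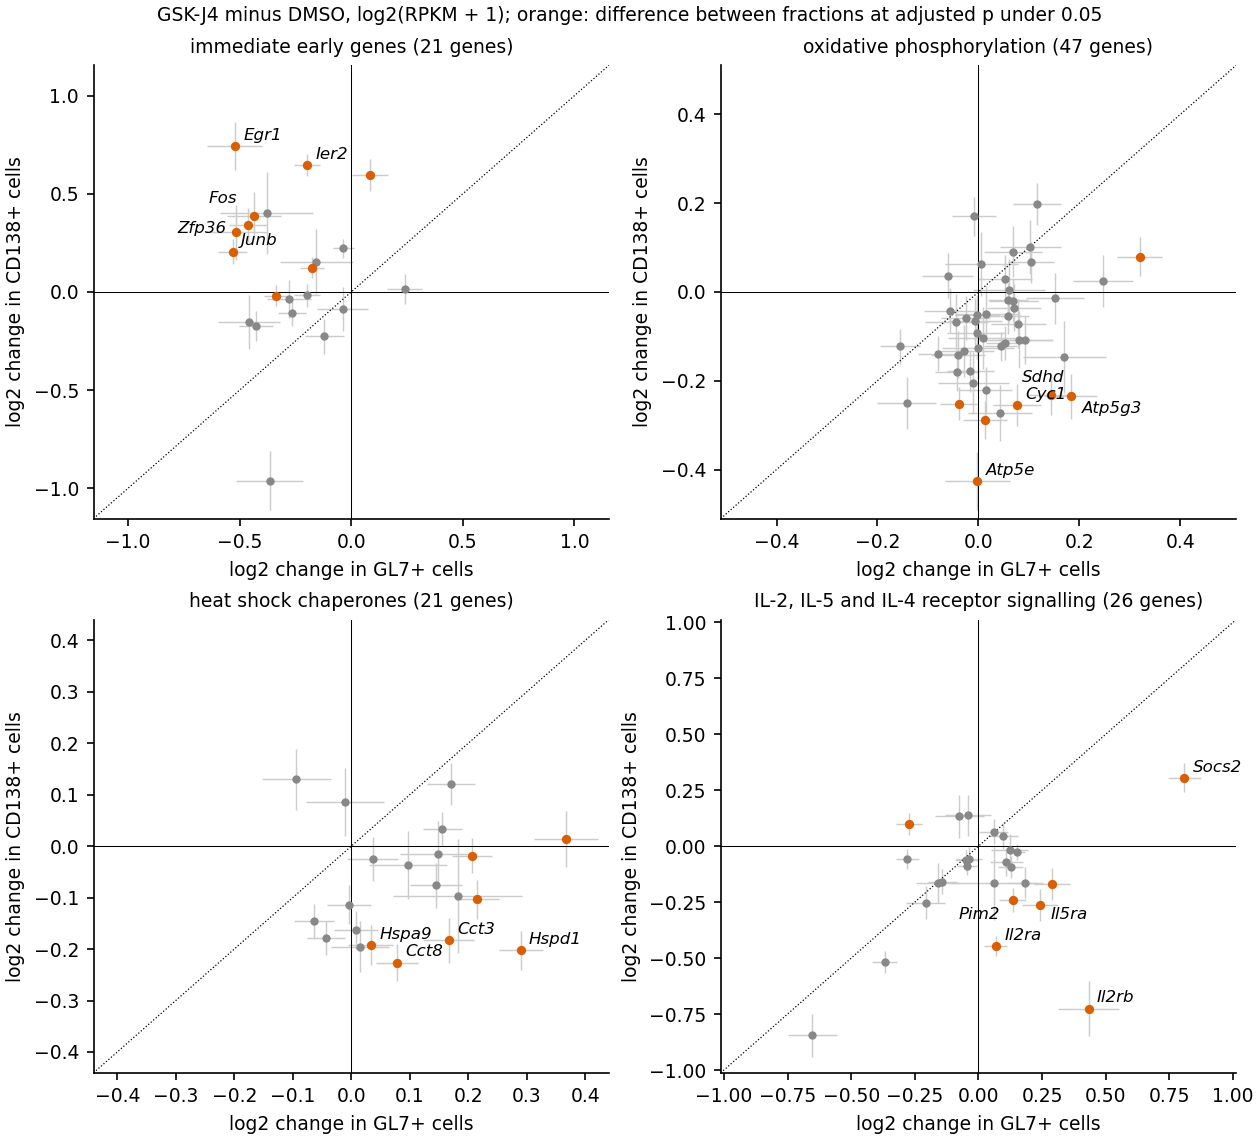
Log2 change with GSK-J4 in CD138+ cells (y axis) against that in GL7+ cells (x axis) for the members of 4 lists, 1 panel each, with the dotted line marking equal change and orange points a called difference. Grey bars are the standard errors. Immediate early genes lie mostly above the line, and genes of oxidative phosphorylation and chaperones mostly below it.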

How the data were processed

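Poly(A) RNA-seq of B cell fractions was analysed as gene RPKM values, which the authors deposited per the file headers with each gene's length. TopHat2 and build mm9 are named in the submitters' processing notes, and the counter, its use of strand and all versions were not given in the sources used here. RPKM times length summed to 1000000 in every library. Read counts were recovered from the deposited RPKM and lengths, and 100% of the values up to 20 reads were whole within 0.1 read. Depths come from these sums.

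Genes that reached 1 RPKM in 3 or more of the 6 CD138+ libraries were fitted with limma 3.58.1 (R 4.3.3) on log2(RPKM + 1), with a trended variance, over the 12 cultured libraries, 1 mean for each of 4 groups. Benjamini-Hochberg adjustment ran over all genes tested, at a threshold of 0.05. The fit was also run on simulated counts drawn without shared mice, and the outcome of that run is not used here. Tables and plots used Python 3.11.15, pandas 2.3.3, numpy 2.4.6 and matplotlib 3.10.9. P-values measure the spread between these libraries.

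The text names, per direction, up to 15 genes of largest log2 change with a mean of at least 5 RPKM and up to 5 of largest RPKM difference, both without overlap of treatments, and up to 6 of largest difference between fractions. For genes named by log2 change or RPKM difference, a lack of overlap was a condition and not a result. List members picked by adjusted p were likely to lack overlap as well, so it is no separate support for them. It also names up to 4 members per gene list by adjusted p, and 10 regulators in any case. Other genes are said to be chosen after their values were seen. Members and lists were chosen with earlier results of these data known. Some of the genes so taken are not reported here, and immunoglobulin segments were not analysed here.

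The labels tie 5 of the 6 CD138+ libraries to a mouse, and the block alternative gives the library labelled replicate 4 a level of its own. Residuals of the 15 pairs of libraries from the same mouse had a median r of 0.097 (-0.028 to 0.22), against -0.031 in 39 other pairs. Gene symbols were matched to RefSeq by identifier (21615 of 21761), which restored 27 symbols turned into dates, and 92 genes kept an identifier. Promoter sequences are RefSeq's on GRCm38.p6, not the build of the files. In all, 23 alternatives were run.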

Additional observations from a re-analysis of the deposited data

Results flagged for a closer look

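For 56 of the genes named by the ranking rules, the change with GSK-J4 in CD138+ cells differed from the change in GL7+ cells by a test of the difference itself in the limma fit (adjusted p under 0.05). The values here are the log2 change in CD138+ cells minus that in GL7+ cells. The difference was higher in CD138+ cells for 17 genes and lower for 39, and the signs of the changes were opposite for 28.

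In 10 genes both changes were called and had opposite signs. Of these, Egr1 (1.26), Basp1 (1.18), Ier2 (0.84), Fos (0.82) and Zfp36 (0.81) rose in CD138+ cells and fell in GL7+ cells. The CD138+ call of Fos was lost in 8 alternatives and that of Basp1 in 3. The other 5 went the other way: Il2rb (-1.16), the chaperone Hspd1 (-0.49), the iron-sulphur protein Cisd1 (-0.47), the arginine methyltransferase Prmt1 (-0.35) and the histone-binding protein Rbbp4 (-0.33).

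Among early response genes the difference was also called for Egr2 (0.82) and Dusp1 (0.51), calls that were lost in 13 and 4 alternatives. Among p53 targets it was 0.54 for Cdkn1a, 0.51 for Zmat3, 0.45 for Ccng1 and 0.27 for Mdm2. Further positive differences were those of Vkorc1 (0.77), Lgals3bp (0.69), B2m (0.40), Rps26 (0.30), Rpl41 (0.26) and Tapbp (0.23). Those of Tapbp, B2m and Rpl41 were lost in 13, 8 and 3 alternatives, and those of Cdkn1a, Mdm2 and Rps26 in 1 each.

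Regulators and surface proteins of B cells made up many of the negative differences. They were Spib (-1.18), Zbtb32 (-1.05), Cd22 (-1.0), Id3 (-1.0), Fcer2a (-0.77), Pax5 (-0.72), Cd83 (-0.65), H2-DMb1 (-0.65), Ciita (-0.59), Blk (-0.54), Il2ra (-0.51), Bank1 (-0.48), Irf4 (-0.29) and Nfkb1 (-0.26). Those of Ciita and Nfkb1 were lost in 15 and 7 alternatives, and those of Id3, Il2ra and Irf4 in 1 each.

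Mitochondrial and folding genes followed with Lars2 (-1.22), Atp5e (-0.42), Prdx3 (-0.39), Cyc1 (-0.33), Uqcrfs1 (-0.30), Cct8 (-0.30), Hsp90b1 (-0.24), Hspa9 (-0.23) and Atp5a1 (-0.21). Those of Hspa9 and Atp5a1 were lost in 14 alternatives each, Hsp90b1 in 13, Atp5e in 7, Uqcrfs1 in 3 and Cyc1 in 2. Genes of growth and chromatin had differences of -0.34 for Wdr12, -0.31 for Phf19, -0.27 for Ezh2, -0.25 for Rrm2, -0.24 for Rps14 and -0.19 for Rpl9. Of these, Rpl9 lost the call in 14 alternatives, Phf19 in 12, Wdr12 in 2, and Rrm2 and Rps14 in 1 each. The remaining negative differences were those of Gypc (-1.01), Plscr1 (-0.85) and Cyb561a3 (-0.73), and of the short rows Snord73a (-3.21) and Mir1894 (-1.28). Mir1894 lost the call in 11 alternatives, and Plscr1 and Snord73a in 1 each. Snord73a was at 0 in all 3 CD138+ GSK-J4 libraries, so its value depends on the pseudocount.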

How the results depend on the processing

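The 2305 calls in CD138+ cells came to 1443 with all 15 libraries in the fit (515 higher and 928 lower, against 859 and 1446). Over the other alternatives they ran from 1667 to 2681: 1824 with the 6 CD138+ libraries alone, 1760 at thinned depth, 2302 with scaling by trimmed means (TMM), 2353 after quantile normalization, 2260 with voom on recovered reads, 2681 with library weights, 2098 without the filter, 1986 with a minimum of 5 RPKM and 2299 with a pseudocount of 0.1. Leaving out any 1 library left 1667 to 2320 calls, 608 to 866 higher and 1059 to 1454 lower. Quantile normalization turned the split to 51.1% higher, from 37.3%.

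The 482 called differences between fractions came to 107 with all 15 libraries, 276 at thinned depth and 911 with library weights, and to between 216 (without GL7+ DMSO replicate 1) and 503 when 1 library was left out. The cause was not tested. The fit of the 6 CD138+ libraries cannot give this difference. With the mouse of origin as a replicate block, 1991 genes were called in CD138+ cells (778 higher, 1213 lower) and 492 for the difference, and 10 of the named genes called in CD138+ cells lost the call. That fit also leaves CD138+ GSK-J4 replicate 4 out of the comparison.

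Of 208 genes taken by the naming rule 192 were called, and 151 of these kept the call in all 23 alternatives. The other 41 lost it in at least 1, 33 of them with all 15 libraries, 10 with the block and 7 at thinned depth. Of the 16 uncalled, 6 passed somewhere. Of the 56 called differences of named genes, 24 were kept in every alternative, and 30 were lost with all 15 libraries, 16 without GL7+ DMSO replicate 1, 14 at thinned depth and 12 without the filter. No named change that passed in either setting reversed. Medians of the Toll-like receptor, class-switch and repair, ribosome biogenesis, amino acid transporter and PRC1 lists lay near 0 and changed sign under TMM or quantile scaling, as that of iron genes did at a minimum of 5 RPKM. Depth was lower with GSK-J4, which limits genes near 1 RPKM most.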
